A study of Mus musculus with 19 samples.

Results

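The nuclear genes of the mitochondrial respiratory complexes were taken from whole-kidney RNA-seq of mice with an obstructed ureter. A gene was a member where the count table listed it as protein coding and its symbol began as a subunit gene of NADH dehydrogenase (Nduf followed by a, b, c, s or v and a digit), succinate dehydrogenase (Sdha to Sdhd), the cytochrome bc1 complex (Uqcr and Cyc1), cytochrome c oxidase (Cox4 to Cox8) or ATP synthase (Atp5). This rule found 86 of the 54532 genes of the table, of which 22046 were protein coding. There were 37 members of complex I, 4 of complex II, 9 of complex III, 18 of complex IV and 18 of complex V. A further 12 rows matched by name but were not protein coding, 11 of them processed pseudogenes, and were left out. Ndufab1, a carrier protein that is also a subunit of complex I, did not match the rule and is not among the members.

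Male mice of 8 to 9 weeks on the C57BL/6J background were either wild-type (WT) or deficient in CD5L in the whole body (CD5L KO). CD5L is a blood protein made mainly by macrophages, also called AIM. All mice, controls included, had unilateral ureteral obstruction (UUO), in which the left ureter is tied and cut and the kidney above it becomes inflamed and fibrotic, and no unobstructed kidney was among the samples. Each mouse received daily intraperitoneal injections of recombinant CD5L (rCD5L) at 0.5 mg per injection or of the same volume of PBS, and the obstructed kidney was taken on day 12 after perfusion. The 4 groups were WT PBS (n = 5), WT rCD5L (n = 5), CD5L KO PBS (n = 4) and CD5L KO rCD5L (n = 5), 19 kidneys in all. Reads of Cd5l were few: WT PBS kidneys held 5 to 13 and WT rCD5L kidneys 3 to 15, and none was counted in CD5L KO (0, a level at which up to 3 could be missed). Total counts ran from 17917491 to 23847090 per kidney.

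The respiratory chain sits in the inner mitochondrial membrane. Complexes I and II pass electrons from NADH and succinate to ubiquinone, complex III passes them on to cytochrome c and complex IV to oxygen, while complexes I, III and IV pump protons whose return flow drives ATP synthesis by complex V. Most subunits are encoded in the nucleus and imported, and a few core subunits of complexes I, III, IV and V are encoded in mitochondrial DNA. The proximal tubule of the kidney is rich in mitochondria and relies on oxidative phosphorylation for its transport work.

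Many respiratory genes carry binding sites for the factors NRF1, GABPA (an ETS factor), YY1 and ERR near their start. RefSeq promoter windows of 300 bases (GRCm38.p6, 250 bases before to 50 after the start) were found for 68 members, 2 of them through an older symbol. The NRF1 motif GCGCANGCG, searched on both strands, was in the windows of 20 of these 68 members (29.4%), against 7.03% of all 27025 genes with a window. The ETS motif CCGGAAG was in 16 members (23.5%, against 9.93%), the YY1 motif AAGATGG in 11 (16.2%, against 7.28%) and the ERR motif TCAAGGTCA in 2 (2.9%, against 0.47%). The median GC content was 57.8% in the member windows and 52.8% in all windows, so the base composition differed along with the motifs. The 27025 genes were not limited to protein-coding genes or to genes with counts in these kidneys, while all members are protein coding. Among members that were higher in CD5L KO PBS kidneys (see the comparison of genotypes with PBS), 10 of 38 held the NRF1 motif, and among the other members 10 of 30 did. For ETS these were 10 of 38 and 6 of 30, for YY1 8 of 38 and 3 of 30, and for ERR 1 of 38 and 1 of 30. A match is a match of letters and not a measured binding site.

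The 100 bases before the RefSeq start are shown for the member of each complex with the smallest p-value in that comparison among those with a single window. Where these bases held no motif, the member of the smallest p-value that did was added. All lie on the minus strand of GRCm38.p6 and are written 5′ to 3′ along the gene, with motif matches in capitals. By the gene bounds of the count table, the printed bases of Ndufs4 and Atp5j2 lie within the gene. Those of the others except Sdhd overlap its 5′ end. CTTCCGG is the ETS motif read on the opposite strand, and GCGCAGGCG and GCGCACGCG are NRF1 matches. In Ndufs4 and Atp5j2 a YY1 match lay elsewhere in the window, and Cox7a2 had no match to any of the motifs.
Ndufs4, complex I, chr13:114388095-114388194: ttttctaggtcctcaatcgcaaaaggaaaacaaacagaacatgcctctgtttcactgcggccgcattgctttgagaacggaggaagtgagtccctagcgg
Ndufb4, complex I, chr16:37654369-37654468: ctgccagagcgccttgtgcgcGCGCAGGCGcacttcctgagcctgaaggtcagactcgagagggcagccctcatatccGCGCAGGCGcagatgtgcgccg
Sdhd, complex II, chr9:50603850-50603949: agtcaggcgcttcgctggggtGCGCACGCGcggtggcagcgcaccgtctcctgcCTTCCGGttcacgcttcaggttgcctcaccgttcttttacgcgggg
Uqcrh, complex III, chr4:116075071-116075170: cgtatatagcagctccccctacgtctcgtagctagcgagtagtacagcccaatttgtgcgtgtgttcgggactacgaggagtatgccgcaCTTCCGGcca
Cox7a2, complex IV, chr9:79759854-79759953: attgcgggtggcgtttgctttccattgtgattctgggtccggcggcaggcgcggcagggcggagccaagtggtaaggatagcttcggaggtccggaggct
Cox6b1, complex IV, chr7:30626115-30626214: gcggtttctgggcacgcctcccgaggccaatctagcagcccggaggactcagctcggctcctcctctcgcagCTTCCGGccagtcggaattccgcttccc
Atp5j2, complex V, chr5:145191542-145191641: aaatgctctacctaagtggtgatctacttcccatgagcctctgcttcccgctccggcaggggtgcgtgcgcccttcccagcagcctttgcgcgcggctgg
Atp5h, complex V, chr11:115419920-115420019: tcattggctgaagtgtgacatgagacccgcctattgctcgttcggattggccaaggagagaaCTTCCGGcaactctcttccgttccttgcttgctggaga

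Levels are given below either as FPKM or as CPM. FPKM are the fragment values that the authors deposited, scaled to gene length. Their scaling between kidneys did not follow total counts alone. CPM are counts scaled to library size with trimmed-mean (TMM) factors. Only FPKM corrects for gene length and only FPKM is used to compare genes. Over all 19 kidneys the median FPKM of the members was 50.9 in complex I, 73.7 in complex II, 91.4 in complex III, 71.7 in complex IV and 62.0 in complex V. The highest mean FPKM of each complex was that of Ndufa2 (165) in complex I, Sdhd (119) in complex II, Uqcr10 (229) in complex III, Cox6a1 (534) in complex IV and Atp5a1 (310) in complex V. Ndufa2 is an accessory subunit of complex I, Sdhd anchors complex II in the membrane, and Atp5a1 is the alpha subunit of the ATP synthase head. Cox8a (509), Cox4i1 (305), Atp5b (305) and Cox6b1 (231) also exceeded Uqcr10. Cox8c and a second row named Atp5o had 0 counts in every kidney, and 84 members had counts. The member genes were short: their median was 1578 bases, and that of the genes tested between genotypes with PBS was 3808.

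Kidneys 3 and 4 of CD5L KO rCD5L stood apart. The summed member level of that group was 13274, 12444, 18818, 32921 and 13207 CPM in kidneys 1 to 5. Kidney 4 had the highest level of all 19 kidneys in 77 of the 84 members with counts, and its median ratio to the other kidneys of its group, member by member, lay between 2.32 for complexes I and IV and 2.72 for complex III. In the same kidney the proximal tubule markers summed to 64013 CPM, against 4092 to 10630 in the other kidneys, and the mitochondrially encoded subunits to 141456 CPM. The same kidney had the lowest sums of all 19 for macrophage markers (818 CPM, against 2102 to 3337 elsewhere), fibroblast and myofibroblast markers (1541, against 3093 to 6892), lymphocyte markers (17.5, against 36.6 to 87.0) and urothelium markers (184, against 247 to 682). In kidney 3 the skeletal and heart muscle markers summed to 49.9 CPM, against 2.78 to 8.76 elsewhere. The part of these values in the member levels was not tested. In whole tissue, fewer cells of a type and less RNA per cell cannot be told apart.

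The summed member level was 12069, 11938, 14445, 12295 and 12560 CPM in WT PBS (12661 ± 1025, SD, n = 5) and 14416, 14570, 16125 and 14484 CPM in CD5L KO PBS (14899 ± 820, SD, n = 4). The groups overlapped, because WT kidney 3 lay just above the lowest CD5L KO kidney. In WT rCD5L it was 11671, 11926, 10679, 10819 and 10962 CPM (11211 ± 552, SD, n = 5), and in CD5L KO rCD5L the mean was 18133 ± 8652 CPM (SD, n = 5). Summed over complex I, the level was 3228 ± 231 CPM in WT PBS, 2834 ± 161 in WT rCD5L, 3832 ± 185 in CD5L KO PBS and 4492 ± 2032 in CD5L KO rCD5L. The order of the group means was the same in each complex, with WT rCD5L lowest and CD5L KO rCD5L highest, but the SD of CD5L KO rCD5L exceeded its distance from CD5L KO PBS in every complex.

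**Figure D1:**
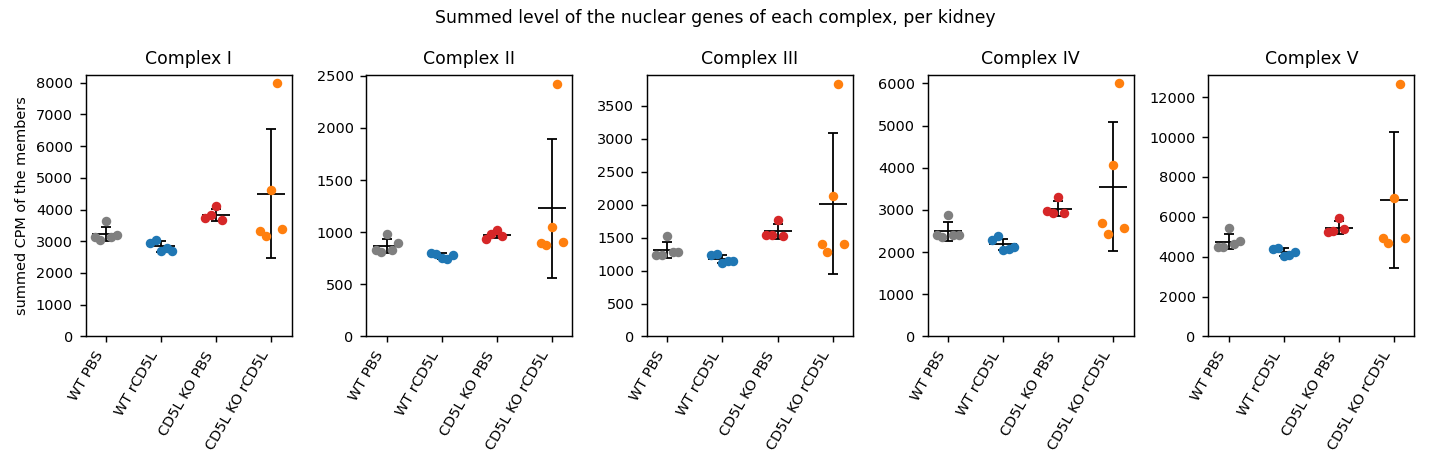
Summed CPM of the members of each complex in every kidney (points) by group, with the mean and SD of each group, on an axis that starts at 0. CD5L KO PBS kidneys lie above the mean of WT PBS in each complex, and kidney 4 of CD5L KO rCD5L lies far above all others, at 7978 CPM in complex I and 12680 CPM in complex V.

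The comparison of CD5L KO with WT kidneys, both with PBS, asks how the lack of CD5L goes with respiratory gene expression in the obstructed kidney. Respiratory subunit genes of all 5 complexes were higher in CD5L KO kidneys. Of 82 members tested, 44 were higher and 0 lower at an adjusted p under 0.05 by edgeR's quasi-likelihood test, against 10.5% of all 17579 genes tested in either direction and 5.13% of them higher. The median log2 fold change of the members was 0.28, a 1.22-fold difference, and 79 of the 82 had a higher mean, while the median over all genes tested was -0.00. In 39 members every CD5L KO kidney lay above every WT kidney, against 7.26% of all genes tested. The untested members were Cox6a2, Cox7b2, Cox8c and the second Atp5o row, whose counts were too low. Fitted with all 19 kidneys in 1 model, the same comparison called 0 members (12 of all genes), and with 17 kidneys, without kidneys 3 and 4 of CD5L KO rCD5L, it called 47 (12.2% of all genes).

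**Figure D2:**
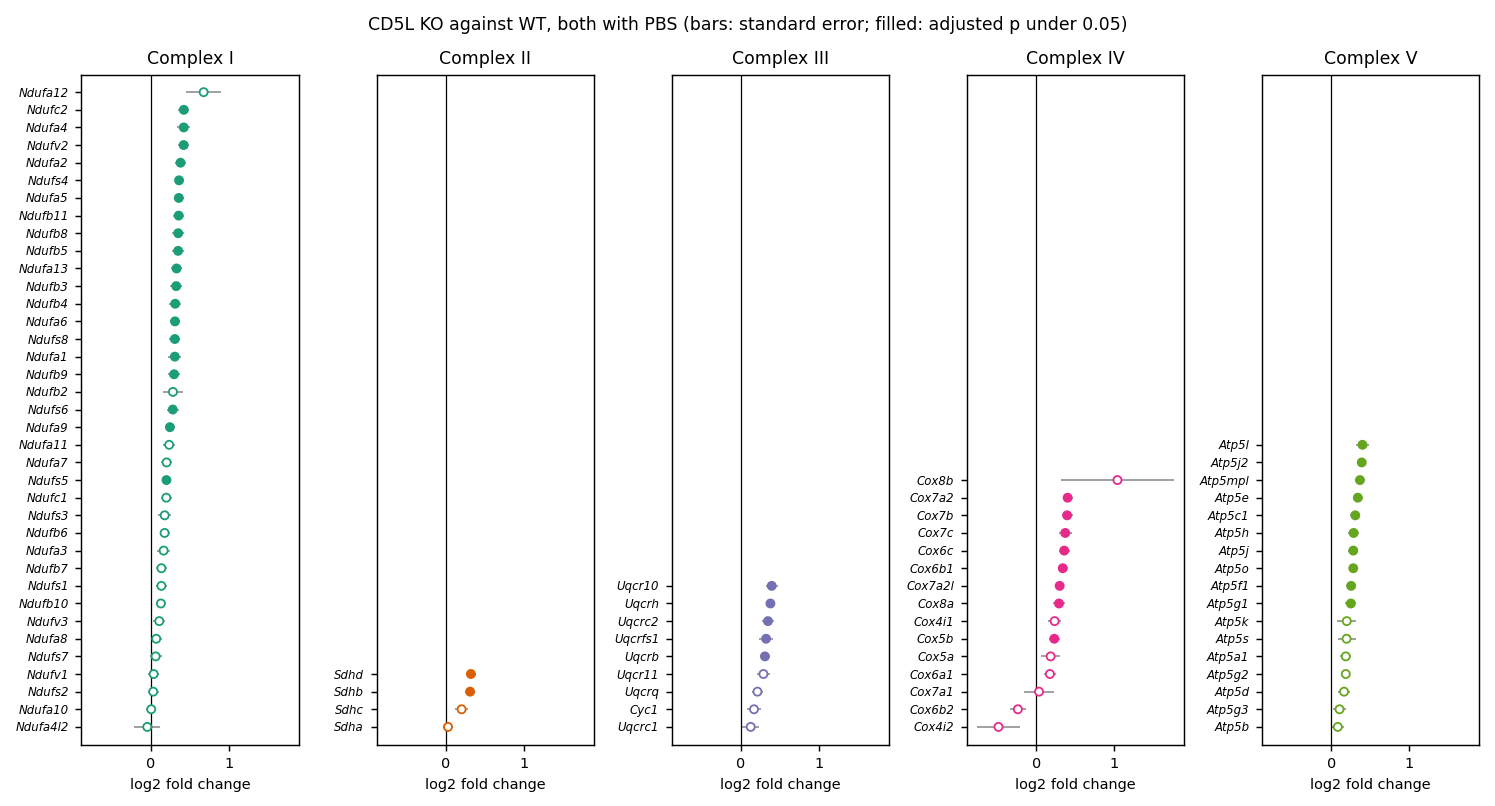
Log2 fold change (CD5L KO over WT, both with PBS) of each tested member with its standard error, arranged by complex, with filled points for an adjusted p under 0.05. Filled points occur in every complex and all lie above 0, between 0.20 and 0.43.

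In complex I, 19 of 37 members were higher, with a median log2 fold change of 0.28. Ndufs4, an accessory subunit of the arm that takes up electrons from NADH (chr13:114287795-114388258, 2708 bases), stood at 72.3, 71.0, 79.8, 75.0 and 75.2 CPM in WT PBS and 95.9, 95.8, 103 and 91.4 CPM in CD5L KO PBS. The groups did not overlap, and the log2 fold change was 0.36 ± 0.05 (SE, adjusted p = 0.00497). Ndufv2, a core subunit with an iron-sulfur cluster, was at 109, 107, 131, 106 and 113 CPM in WT PBS and 152, 148, 164 and 146 CPM in CD5L KO PBS. Its log2 fold change was 0.42 ± 0.07 (adjusted p = 0.00553), again with no overlap. Ndufc2, an accessory subunit of the membrane arm, was at 50.8 to 63.4 CPM against 68.4 to 76.2 CPM (0.43 ± 0.07, adjusted p = 0.00618). Ndufa2, the member of complex I with the highest FPKM, was at 96.1 to 116 CPM against 128 to 146 CPM (0.38 ± 0.07, adjusted p = 0.00677).

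The core subunits of complex I, which carry the redox centres, and the accessory subunits around them were counted apart. Among the core subunits 2 of 7 were higher (median log2 fold change 0.14), and among the accessory subunits 16 of 28 (median 0.29). With gene length as an offset in the fit, these became 1 of 7 (median 0.12) and 7 of 28 (median 0.16), so the medians lay closer together, and the difference between the classes was not tested. Ndufv1, the core subunit that binds NADH, was at 174, 171, 205, 167 and 178 CPM in WT PBS and 174, 174, 204 and 186 CPM in CD5L KO PBS, a log2 fold change of 0.04 ± 0.07. Ndufa10, an accessory subunit, had a log2 fold change of 0.01 ± 0.07. Both sets of kidneys overlapped almost completely. Ndufa12, named here after its values were seen, had the largest fold change of complex I (0.68 ± 0.22) without passing the test (adjusted p = 0.0731). Kidney 4 of CD5L KO PBS was at 58.4 CPM and the other 3 at 25.3 to 28.3 CPM, where the highest WT PBS kidney was at 25.5 CPM.

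Complex II is also an enzyme of the citric acid cycle and is encoded wholly in the nucleus. Of its 4 genes, Sdhd and Sdhb were higher. Sdhd was at 149, 150, 167, 150 and 166 CPM in WT PBS and 189, 201, 213 and 183 CPM in CD5L KO PBS (log2 fold change 0.32 ± 0.06, adjusted p = 0.00873). Sdhb, the iron-sulfur subunit, was at 125, 129, 154, 134 and 142 CPM against 162, 176, 184 and 161 CPM (0.31 ± 0.07, adjusted p = 0.0147). Neither gene's groups overlapped. Sdhc, the other membrane anchor, gave 0.20 ± 0.08 (adjusted p = 0.124). Sdha, the flavoprotein that oxidizes succinate, was at 407, 389, 479, 412 and 431 CPM in WT PBS and 417, 444, 428 and 445 CPM in CD5L KO PBS, with overlapping groups and a log2 fold change of 0.03 ± 0.06.

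In complex III, 5 of 9 members were higher, with a median log2 fold change of 0.31. Uqcrh, the hinge protein near cytochrome c1, was at 151, 140, 165, 147 and 144 CPM in WT PBS and 199, 205, 198 and 177 CPM in CD5L KO PBS (0.38 ± 0.06, adjusted p = 0.00637). Uqcr10, a small subunit, was at 129 to 172 CPM against 183 to 201 CPM (0.39 ± 0.08, adjusted p = 0.00967). Uqcrb, a subunit next to the ubiquinone site, gave 0.31 ± 0.06 (adjusted p = 0.0102). The groups of these 3 genes did not overlap. Uqcrc1, a large core subunit without redox centres, was at 185 to 257 CPM in WT PBS and 209 to 292 CPM in CD5L KO PBS (0.12 ± 0.11, adjusted p = 0.518).

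In complex IV, 8 of 15 tested members were higher, with a median of 0.29. Cox7a2, a small subunit in the isoform of most tissues, was at 103, 100, 119, 104 and 108 CPM in WT PBS and 136, 142, 156 and 133 CPM in CD5L KO PBS (0.40 ± 0.06, adjusted p = 0.00566). Cox7b, a small subunit encoded on the X chromosome, was at 107 to 137 CPM against 149 to 163 CPM (0.40 ± 0.07, adjusted p = 0.00677). Cox6b1, which faces the space between the membranes, was at 161 to 198 CPM against 217 to 226 CPM (0.34 ± 0.06, adjusted p = 0.0077). None of these groups overlapped. Cox6a1, the member with the highest FPKM of all, was at 397 to 488 CPM against 436 to 535 CPM and did not pass (0.18 ± 0.08, adjusted p = 0.176).

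Several subunits of complex IV exist as isoforms made in different tissues. Of the common isoforms 7 of 10 were higher (median 0.32), and of the tissue isoforms 0 of the 4 that could be tested of 7. Cox4i1, the common form of a subunit that regulates the enzyme, gave 0.24 ± 0.09 (adjusted p = 0.106). Cox4i2, its lung isoform, which is also induced by low oxygen, was at 1.11 to 1.94 CPM in WT PBS and 0.652 to 1.47 CPM in CD5L KO PBS, with overlap and a log2 fold change of -0.48 ± 0.28. Cox6b2, the testis isoform, gave -0.23 ± 0.10 (adjusted p = 0.157), and with a correction for gene length -0.37 (adjusted p = 0.0374). Cox7a1, the heart and muscle isoform, gave 0.04 ± 0.19, and Cox8b, another muscle form, 1.04 ± 0.73 from levels under 1 CPM. Cox7a2l, which helps to join complexes III and IV, was higher (0.30 ± 0.06, adjusted p = 0.00982), as was Cox8a (0.29 ± 0.08, adjusted p = 0.0381). With a correction for gene length Cox7a2l gave 0.17 and was not called. Ndufa4, counted with complex I by its name but found in complex IV, was higher (0.42 ± 0.08, adjusted p = 0.00873), and its low-oxygen paralog Ndufa4l2 gave -0.04 ± 0.17.

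In complex V, 10 of 17 tested members were higher, with a median of 0.25. Atp5j2, subunit f of the membrane part, was at 142, 135, 161, 135 and 144 CPM in WT PBS and 184, 188, 196 and 187 CPM in CD5L KO PBS (0.39 ± 0.06, adjusted p = 0.00526). Atp5mpl, a small proteolipid of the membrane part, was at 83.2 to 98.2 CPM against 108 to 122 CPM (0.37 ± 0.07, adjusted p = 0.00719). Atp5e, the epsilon subunit of the central stalk, was at 132 to 154 CPM against 161 to 196 CPM (0.34 ± 0.07, adjusted p = 0.0102). The groups of these 3 genes did not overlap. Of the F1 head and central stalk 2 of 5 were higher (median 0.19), of the c-ring 1 of 3 (0.19), of the membrane part 3 of 4 (0.38), and of the peripheral stalk all 4 tested (0.28). Atp5a1 gave 0.19 ± 0.07 (adjusted p = 0.122) and Atp5b, the catalytic beta subunit, 0.08 ± 0.08, both with overlapping groups. The c-ring protein is encoded by 3 genes: Atp5g1 was higher (0.25 ± 0.07, adjusted p = 0.0383), Atp5g2 gave 0.19 ± 0.06 (adjusted p = 0.0524) and Atp5g3 0.11 ± 0.08.

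Reads of some members could be shared with other genes. In the GENCODE vM21 annotation 30 of the 86 members share an exon base with another gene, and 4 share over 20% of their exon bases: Ndufa13 (30.0%, with Tssk6 on the opposite strand), Ndufb6 (39.0%, with Smim27 on the opposite strand), Atp5o (47.9%) and the second Atp5o row. How the counting treated strand and reads that map to several places, such as processed pseudogenes, was not given in the sources used here, so the levels of these members are less certain.

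Gene length moved with this comparison. Relative to the mean of all kidneys, the slope of log2 level on gene length lay between -0.048 and -0.028 per doubling of length in CD5L KO PBS kidneys, and between -0.0038 and 0.032 in WT PBS kidneys, with no overlap. Other protein-coding genes of 500 to 1000 bases were higher in 18.9% of cases (median log2 fold change 0.24), and those over 4000 bases in 2.71% (median -0.06). In the same length classes 12 of 19 members (median 0.29) and 4 of 10 members (median 0.19) were higher. Between 1000 and 2000 bases these values were 11.6% (median 0.12) for other genes and 18 of 31 (median 0.30) for members, and between 2000 and 4000 bases 6.28% (median 0.03) and 9 of 20 (median 0.20). With gene length as an offset in the fit, 24 members were higher, all of them among the 44, against 3.88% of all genes tested, and the median log2 fold change was 0.16. The calls went from 19 to 9 in complex I (median 0.16), from 2 to 1 in complex II (0.19), from 5 to 2 in complex III (0.15) and from 8 to 4 in complex IV (0.13), where Cox6b2 was the one lower. Complex V went from 10 to 9 calls, and its median of 0.21 was then the highest of the complexes, where without the offset that of complex III was. Ndufs4 (0.33, adjusted p = 0.00868) and Atp5j2 (0.37, adjusted p = 0.00868) passed under this offset, and Sdhd (0.19, adjusted p = 0.0776), Uqcr10 (0.21, adjusted p = 0.0892) and Cox6b1 (0.17, adjusted p = 0.0928) did not.

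**Figure D3:**
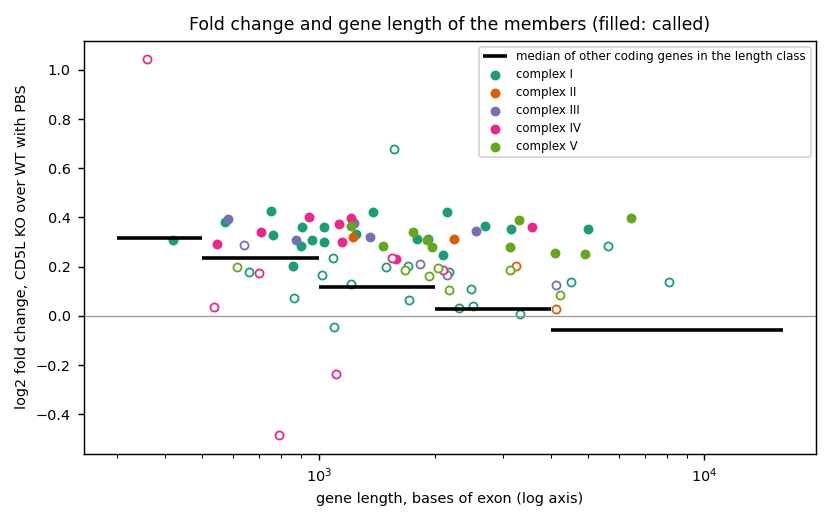
Log2 fold change (CD5L KO over WT, both with PBS) of each tested member against gene length on a log axis, with filled points for an adjusted p under 0.05 and black lines for the median of other protein-coding genes in each length class. The black lines fall from 0.32 under 500 bases to -0.06 over 4000 bases, and the member medians in the classes from 500 bases upwards lie above them, between 0.19 and 0.30.

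The remaining genes of the pathway were taken from fixed lists, which were counted without the gene length offset. Of 51 tested assembly factors and carriers, 9 were higher and 1 lower (median log2 fold change 0.15), where 5.13% of all genes tested were higher. Usmg5, a small protein of the ATP synthase dimer (0.41), and Coa6, which helps to deliver copper to complex IV (0.42), were among those higher, and Cox15, needed to make heme a, was the one lower (-0.23). Of 17 regulators of respiratory genes 2 were higher, Tfam (0.21, adjusted p = 0.0292) and Tfb2m (0.18), which both start transcription of mitochondrial DNA. The mean was higher in 11 of the 17 regulators (median 0.07). Ppargc1a, a coactivator of mitochondrial genes, gave -0.09, and Nrf1 -0.19 (adjusted p = 0.068). Of 12 tested subunits encoded in mitochondrial DNA all had a higher mean (median 0.30), and mt-Co1 (0.41, adjusted p = 0.0448) and mt-Co3 (0.45, adjusted p = 0.0129), core subunits of complex IV, passed.

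Markers of cell types were counted in the same comparison. Of the fibroblast and myofibroblast markers 6 of 10 were lower (median -0.46), and their sum was 4548 to 6892 CPM in WT PBS against 3207 to 4436 CPM in CD5L KO PBS, without overlap. Of the endothelial markers 4 of 8 were lower (median -0.32), with sums of 838 to 946 CPM against 705 to 790 CPM. The proximal tubule markers overlapped, at 4973 to 10101 CPM in WT PBS and 4763 to 9944 CPM in CD5L KO PBS, and 1 of 15 was higher (median -0.04). The 8 urothelium markers all had a higher mean (median 0.74, 0 called), and of 5 adipose markers 1 was higher (median 0.60). Of the macrophage markers 1 was higher and 1 lower of 10, and 0 were called of 9 thick limb and distal tubule, 10 lymphocyte, 3 muscle, 1 testis and 5 epididymis markers tested. Their part in the member differences was not tested.

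**Figure D4:**
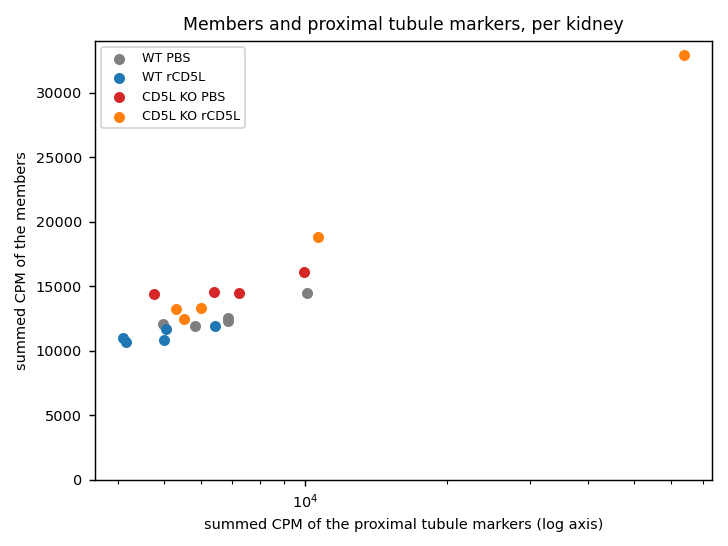
Summed CPM of the members against summed CPM of proximal tubule markers (log axis) for each of the 19 kidneys, coloured by group. Kidney 4 of CD5L KO rCD5L stands alone at 64013 CPM of tubule markers and 32921 CPM of members, while the PBS groups overlap in tubule markers.

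The other comparisons share groups with this one, so their values are given side by side and are not independent of it. In WT mice, rCD5L against PBS asks whether added CD5L goes with a change where the mice make their own. Almost all members had a lower mean with rCD5L, but none passed the adjusted test: 0 of 81 were called, as were 0% of all genes. At an unadjusted p under 0.05, 52 members were lower and 0 higher, against 7.71% of all genes lower, and the median log2 fold change was -0.17. This count depended on single kidneys, on gene length and on the kidneys fitted. It was 27 (median -0.12) without WT PBS kidney 3, 32, 33 and 32 without WT rCD5L kidneys 3, 4 and 5, and 30 (median -0.12) with the gene length offset. Fitted with all 19 kidneys in 1 model it was 1 (1.28% of all genes lower). With 17 kidneys, without kidneys 3 and 4 of CD5L KO rCD5L, it was 55 (7.58%). A lower mean was found in 80 of 81, Ndufa12 being the exception (0.44 ± 0.32). In 10 members all kidneys with rCD5L lay below all kidneys with PBS, against 2.11% of all genes. By complex, the unadjusted test found 25 lower in complex I, 2 in complex II, 4 in complex III, 8 in complex IV and 13 in complex V. DESeq2 called 13 members in this comparison (542 of all genes).

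Sdhb had the smallest p, at 125, 129, 154, 134 and 142 CPM with PBS and 115, 118, 112, 114 and 115 CPM with rCD5L, a log2 fold change of -0.24 ± 0.05 (adjusted p = 0.107). Ndufv1 was at 167 to 205 CPM with PBS and at 149, 153, 145, 151 and 153 CPM with rCD5L (-0.24 ± 0.06, adjusted p = 0.107). Ndufb10, an accessory subunit of complex I, was at 83.7 to 96.2 CPM and 71.6 to 80.6 CPM (-0.21 ± 0.05, adjusted p = 0.109). The groups of these 3 genes did not overlap. Of 15 proximal tubule markers 9 were lower at an unadjusted p under 0.05 (median -0.50), with sums of 4973 to 10101 CPM with PBS and 4092 to 6439 CPM with rCD5L. At the same level, 6 of 12 mitochondrially encoded subunits (median -0.23) and 4 of 8 endothelial markers (median -0.11) were lower, and 4 of 5 epididymis markers (median 0.81) were higher. Of 10 lymphocyte markers 9 had a higher mean (median 0.34), 1 of them at an unadjusted p under 0.05. The part of these lists in the member values was not tested.

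In CD5L KO mice, rCD5L against PBS asks what restoring the protein goes with. No member passed, with 0 of 83 called and 0% of all genes, and 0 members had an unadjusted p under 0.05, against 1.4% of all genes higher. The mean was higher in 77 members (median 0.23), and this direction rested on kidney 4: without it 21 of 82 were higher and the median was -0.08. Without kidneys 3 and 4 the median was -0.21, and 49 of 82 members were lower and 0 higher at an unadjusted p under 0.05, against 5.44% of all genes lower. These kidneys were left out because their summed member level was the highest, so lower values without them follow in part from that choice. Uqcrc1 had the smallest p, at 213, 209, 292 and 243 CPM with PBS and 247, 206, 478, 615 and 211 CPM with rCD5L (0.57 ± 0.34, adjusted p = 0.897). Kidneys 1, 2 and 5 lay within the PBS range or just beside it. Ndufv1 gave 0.44 ± 0.28 and Ndufa10 0.49 ± 0.31 (adjusted p = 0.897 for both). Of the proximal tubule markers 14 of 15 had a higher mean (median 1.39), which includes kidney 4. Their sum was 5319 to 10630 CPM in the other 4 kidneys with rCD5L and 4763 to 9944 CPM with PBS, with overlap. Of 5 tested epididymis markers 4 were higher at an unadjusted p under 0.05 (median 1.39), with sums of 24 to 60.9 CPM with rCD5L and 8.55 to 22.6 CPM with PBS, without overlap. All 8 urothelium markers had a lower mean (median -0.46, 1 at an unadjusted p under 0.05), and 8 of 9 thick limb and distal tubule markers a higher one (median 0.50, 0 at that level). The part of these lists in the member values was not tested.

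Between CD5L KO and WT mice that both received rCD5L, 79 of 81 members had a higher mean in CD5L KO (median 0.69). None passed the adjusted test (0% of all genes did), while at an unadjusted p under 0.05, 71 members were higher, against 11% of all genes, and 1 was lower, Cox6b2 (-0.40 ± 0.14). The count of 71 became 51 with the gene length offset (median 0.59, 10.3% of all genes higher) and 42 with a replicate block in the fit (4.93%). It was 52 to 64 without single WT rCD5L kidneys (6.84% to 8.2%) and 55 to 74 without single CD5L KO rCD5L kidneys (8.82% to 13.4%). Fitted with all 19 kidneys in 1 model, 50 members were called (7% of all genes). In 43 members the groups did not overlap, against 4.29% of all genes. The median was 0.33 without kidney 4, and without kidneys 3 and 4 it was 0.21, with 14 members called against 1.62% of all genes higher. Ndufa7, an accessory subunit of complex I, had the smallest p, at 85.3, 86.4, 72.0, 83.5 and 72.2 CPM in WT and 95.4, 94.2, 129, 154 and 102 CPM in CD5L KO. The groups did not overlap, and the log2 fold change was 0.53 ± 0.16 (adjusted p = 0.259). Ndufb8 (0.69 ± 0.21) and Ndufs5 (0.64 ± 0.19), accessory subunits as well, had the same adjusted p and no overlap. Of the proximal tubule markers 13 of 15 had an unadjusted p under 0.05 and a higher mean (median 1.95), and of the mitochondrially encoded subunits all 12 tested did (median 1.17). Both medians include kidney 4. In the other 4 CD5L KO kidneys the tubule markers summed to 5319 to 10630 CPM, which overlapped the 4092 to 6439 CPM of WT, and the mitochondrially encoded subunits to 29744 to 41770 CPM, above the 21875 to 29223 CPM of WT. At an unadjusted p under 0.05, 3 of 10 fibroblast and myofibroblast markers (median -0.40) and 3 of 8 endothelial markers (median -0.20) were lower, against 6.8% of all genes. The mean was higher in 1 of 10 lymphocyte markers (median -0.32), in 1 of 10 macrophage markers (median -0.17) and in all 5 tested adipose markers (median 0.66). The part of these lists in the member values was not tested.

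The interaction asks whether rCD5L goes with a different change in CD5L KO than in WT mice. It called 0 of 83 members and 0% of all genes. At an unadjusted p under 0.05, 4 of 83 members were higher, a share near the 4.41% of all genes. They were Ndufv1 (0.71 ± 0.29), Ndufa10 (0.76 ± 0.32), Ndufs7 (0.60 ± 0.29), a core subunit named after its values were seen, and Uqcrq (0.75 ± 0.36), a small subunit of complex III. All had an adjusted p of 0.731. The count of 4 depended on single kidneys: it was 24, 25 and 23 without CD5L KO rCD5L kidneys 1, 2 and 5 (7.76%, 8.56% and 7.49% of all genes higher), and between 1 and 7 without any other single kidney. Leaving out kidney 1, 2 or 5 gives kidneys 3 and 4 more weight in the group mean, and the medians were then 0.53, 0.53 and 0.52. Without kidneys 3 and 4 the count was 0 (2.69% of all genes higher). The median was 0.43 in the full set, 0.08 without kidney 4 of CD5L KO rCD5L and -0.05 without kidneys 3 and 4. Of 15 proximal tubule markers 13 were higher at an unadjusted p under 0.05 in the full set (median 1.94), kidney 4 included.

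**Figure D5:**
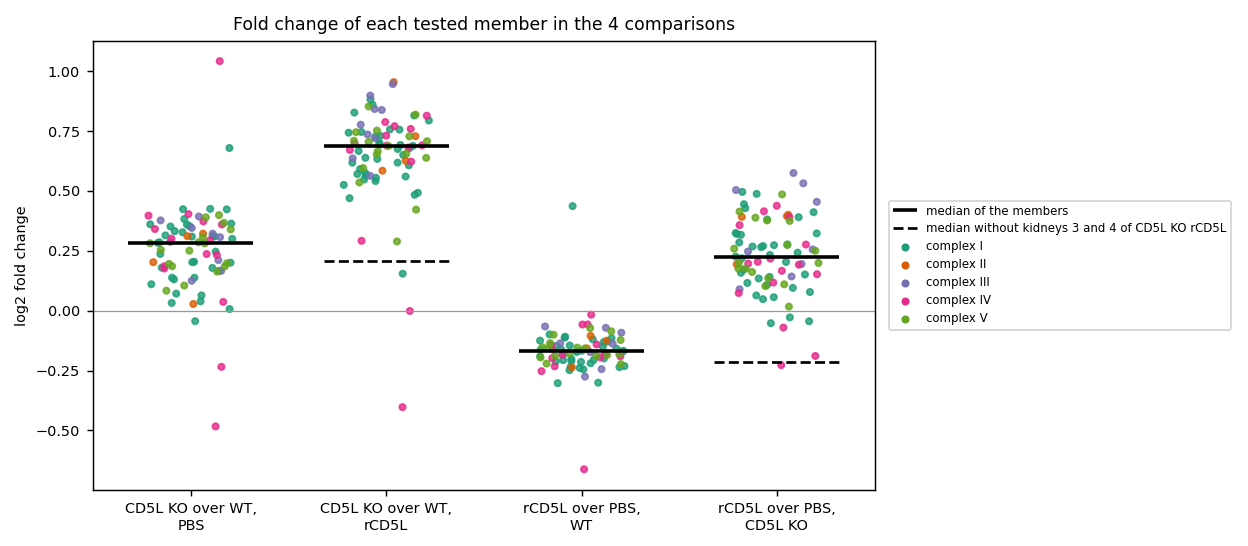
Log2 fold change of each tested member in the 4 comparisons of groups, with the median as a solid line and the median without kidneys 3 and 4 of CD5L KO rCD5L as a dashed line. The solid median is 0.28 for the genotypes with PBS, -0.17 for rCD5L in WT, 0.23 for rCD5L in CD5L KO and 0.69 for the genotypes with rCD5L, and the dashed medians of the last 2 are -0.21 and 0.21.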

How the data were processed

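RNA was taken from 19 whole obstructed kidneys (RIN at least 7), and random-primed libraries were read as 150-bp pairs. The authors deposited counts per gene and FPKM, with gene length and biotype; their processing notes name Trimmomatic, HISAT2, featureCounts and DESeq2 on GRCm38 (mm10). Versions, strand setting and the handling of reads with several positions were not given in the sources used here. No column lacked a sample (0).

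Genes with at least 10 counts by edgeR's filterByExpr were fitted with edgeR 4.0.16 (R 4.3.3; TMM, quasi-likelihood, Benjamini-Hochberg adjustment over all genes tested, threshold 0.05), with the kidneys of the groups compared, and the interaction with all 19. Alternatives used DESeq2 1.42.0, limma 3.58.1 on log2(FPKM + 1) and log2(FPKM + 0.1), other scalings and filters, a gene length offset, a replicate block, 1 fit of all kidneys, and leaving out each kidney. Leaving out kidneys 3 and 4 of CD5L KO rCD5L, or kidney 3 of the PBS groups, was chosen after seeing the data, as were the subunit roles. The fits were tested on simulated data. Named genes were those with the smallest p or highest FPKM of each complex, the smallest p of each comparison, all Sdh genes and the isoform pairs. The members and lists were chosen with earlier results of these data known.

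Each sample was 1 obstructed kidney of 1 of 4 groups. No 2 kidneys of a group held the same counts (0 of 36 pairs, lowest chi-square per degree of freedom 6.63). The labels do not say whether equal numbers pair kidneys across groups. Correlations of the deviations of equally numbered kidneys ran from -0.19 to 0.17. For rCD5L against PBS in CD5L KO 3 of 4 exceeded 0.1, and for the genotypes with PBS 2 of 4. In no comparison did all exceed 0.1, and the main fits were unpaired.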

Additional observations from a re-analysis of the deposited data

Results flagged for a closer look

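A kidney was set apart where its gap to the nearest other kidney of its group was large against the range of the group by Dixon's test, which chance gives in about 1 of 20 groups; 28 groups were looked at. Kidney 4 of CD5L KO rCD5L was set apart in complex II (2419 CPM), in complex V (12680 CPM), in the mitochondrially encoded subunits (141500 CPM) and in the proximal tubule markers (64010 CPM). Kidney 3 of WT PBS was set apart in complex I (3629 CPM), complex III (1526 CPM) and complex IV (2882 CPM). Kidney 3 of CD5L KO PBS was set apart in complex III (1772 CPM) and complex IV (3305 CPM). Among single members with counts, 20 of 84 were set apart in WT PBS, 18 of them by kidney 3, and 31 of 84 in CD5L KO rCD5L, all by kidney 4, against 6 in WT rCD5L and 5 in CD5L KO PBS.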

How the results depend on the processing

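For the genotypes with PBS, the gene length offset called 25 members (median 0.16, 7.42% of all genes) and the fit of all 19 kidneys 0 (0.065%). Leaving out single kidneys gave 30 calls (without WT PBS kidney 2, 6.44% of all genes) to 58 (without WT PBS kidney 3, 11.8%). For rCD5L in CD5L KO the median ran from -0.0779 to 0.33 without single kidneys and was -0.21 without kidneys 3 and 4. For rCD5L in WT, no filter called 1 (0.43% of all genes) and DESeq2 13 (3.11%). For the genotypes with rCD5L, DESeq2 called 1 (0.743% of all genes), the fit of all kidneys 50 (7% of all genes), and leaving out kidneys 3 and 4 called 14 (median 0.21, 3.58% of all genes), or 20 (median 0.21, 4.69% of all genes) in 1 fit of 17 kidneys. The interaction median ran from 0.0785 to 0.53 without single kidneys and was -0.0464 without kidneys 3 and 4. The cause was not tested. The replicate block called 49 members for the genotypes with PBS (12.1% of all genes) and 0 in the other comparisons. With it, 42 members were higher at an unadjusted p under 0.05 for the genotypes with rCD5L (4.93% of all genes), against 71 (11%) without it. Whether equal numbers pair kidneys is not known. For named genes, 424 values kept their direction and side of the threshold, 30 lost the threshold, 9 gained it and 16 changed sign without passing it. Precision is limited by 4 to 5 kidneys a group.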
